A study of Mus musculus with 8 samples.

Results

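From the 25124 genes of the deposited expression table, 10 whose proteins act as brakes on inflammatory signaling were selected. These were 7 MAP kinase phosphatases (Dusp1, Dusp2, Dusp4, Dusp5, Dusp6, Dusp7 and Dusp16) and 3 mRNA decay factors of the Zfp36 family (Zfp36, Zfp36l1 and Zfp36l2). They were chosen by symbol, and each symbol had 1 row in the table. Their mRNA levels were compared in bone marrow-derived osteoclast precursor cells that received extracellular PRDX1, RANKL, both proteins or neither. PRDX1 was associated with higher Dusp1 and Dusp4, RANKL with higher Dusp2 and Dusp5, and RANKL with lower Dusp6, Zfp36l1 and Dusp16. Dusp7 and Zfp36l2 were also called lower with RANKL alone.

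MAP kinases (ERK, JNK and p38) are switched on by phosphorylation of a threonine and a tyrosine, and MAP kinase phosphatases remove both phosphates. Dusp1, Dusp2, Dusp4 and Dusp5 are inducible nuclear enzymes, Dusp6 and Dusp7 are cytoplasmic enzymes that prefer ERK, and Dusp16 prefers JNK and p38. Zfp36, also called tristetraprolin or TTP, and its relatives Zfp36l1 and Zfp36l2 bind AU-rich stretches in the 3′ UTR of mRNAs, many of them for cytokines, and recruit the machinery that shortens the poly(A) tail. In macrophages, Dusp1 and Zfp36 are classic early genes of Toll-like receptor signaling, and MAP kinases also act downstream of RANK, the receptor for RANKL. RANKL is the cytokine that turns precursor cells grown in M-CSF into osteoclasts, the cells that resorb bone.

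The 8 RNA-seq libraries fell into 4 groups of 2, named no PRDX1 + no RANKL, PRDX1 + no RANKL, no PRDX1 + RANKL and PRDX1 + RANKL. In the text below these groups are called neither, PRDX1 alone, RANKL alone and both. All cells received M-CSF at 30 ng/mL, RANKL was given at 100 ng/mL and PRDX1 at 200 nM, and RNA was taken after 48 h. PRDX1 was a recombinant His-tagged protein made in bacteria and cleared of endotoxin. The labels give primary cells of C57BL/6 mice aged 6 to 8 weeks, whereas the study's methods describe osteoclast precursors of male ICR mice, so the strain is not settled by these sources. The labels do not say whether the 2 libraries of a group came from separate mice or cultures, so the p-values measure the spread between these libraries, which may be technical. Values are FPKM, fragment counts scaled to transcript length and library total, which allows levels to be set beside each other between genes. The libraries held 24542578 to 41712973 fragments on genes, as recovered from the FPKM values.

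Macrophage markers such as Lyz2, Cd68 and Csf1r were present in every library. The summed FPKM of the 8 macrophage markers was 15718 to 17485 with neither, 16547 to 17009 with PRDX1 alone, 9857 to 10278 with RANKL alone and 13421 to 13821 with both. Osteoclast markers, 8 genes including Acp5 and Ctsk, summed to 32.4 to 33.5 with neither, 79.7 to 84.1 with PRDX1 alone, 1813 to 1909 with RANKL alone and 234 to 241 with both, and Calcr was at 0 in both groups without RANKL. Among markers of other cells, the 8 neutrophil genes summed to 9.85 to 13.8 with neither, 43.1 to 46.6 with PRDX1 alone, 16.0 to 16.4 with RANKL alone and 35.3 to 38.3 with both. The 8 stromal markers summed to 8.12 to 10.9, 17.2 to 17.4, 7.90 to 9.94 and 16.1 to 19.98 in the same order, with Lum at 0 in both groups without PRDX1. The 6 dendritic cell markers summed to 1.36 to 1.47, 3.39 to 3.89, 2.36 to 2.52 and 4.59 to 5.76, again in that order, and the 8 T, B and NK cell markers to 0.439 to 0.528, 1.003 to 1.33, 0.370 to 0.663 and 0.813 to 1.045, with Cd3e and Ncr1 at 0 in every group. In bulk RNA, a change in the share of a cell type cannot be told apart from a change in RNA per cell. The neutrophil, stromal, dendritic cell and T, B and NK cell sums were higher with PRDX1, with and without RANKL. The osteoclast sum was higher with RANKL, higher with PRDX1 alone and lower when PRDX1 was added to RANKL, and the macrophage sum was lower with RANKL and less so with both. Most of the macrophage sum is Lyz2, which averaged 14117 FPKM with neither, 14048 with PRDX1 alone, 8597 with RANKL alone and 11576 with both. Single markers differed, and with neither and RANKL alone Fcgr1 averaged 113 and 8.49 FPKM and Cd68 730.2 and 616 FPKM. The part of these sums in the results below was not tested.

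A gene was called changed when limma gave a Benjamini-Hochberg adjusted p under 0.05 over the 11700 genes tested and a change of at least 1.5-fold on the log2(FPKM + 1) scale. All 10 genes passed the filter of a mean of at least 0.5 FPKM over the 8 libraries. PRDX1 alone against neither gave 2 called genes of the 10, both higher, where 5.79% of all tested genes were called, 3.8% higher and 1.99% lower. PRDX1 added to RANKL gave 3 called genes, all higher, against 10.2% of tested genes called, 6.03% higher and 4.17% lower. RANKL alone against neither gave 7 called genes, 2 higher and 5 lower, against 21.8% of tested genes called, 11.8% higher and 9.96% lower. RANKL added to PRDX1 gave 5, 2 higher and 3 lower, against 8.5% of tested genes called, 4.52% higher and 3.98% lower. Both proteins against neither gave 6, 4 higher and 2 lower, against 12.8% of tested genes called, 7.5% higher and 5.34% lower.

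Without the limit on size, an adjusted p under 0.05 was reached by 8 of the 10 for PRDX1 alone, 8 for PRDX1 added to RANKL, 10 for RANKL alone, 8 for RANKL added to PRDX1 and 9 for both against neither. Among all tested genes the shares by that rule were 29.8%, 42.5%, 59.9%, 40.6% and 44.2%. The libraries of the compared groups did not overlap for 9, 9, 10, 8 and 10 of the 10 genes, and for 65.8%, 71%, 77.9%, 74.3% and 74.7% of tested genes.

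The median log2 difference of the 10 genes was 0.33 for PRDX1 alone and 0.43 for PRDX1 added to RANKL, beside -0.04 and -0.06 over all tested genes. For RANKL alone and for RANKL added to PRDX1 it was -0.16 and -0.08, beside 0.10 and 0.07. For both against neither it was 0.23, beside 0.03. Comparisons that use the same libraries are not independent of each other. The RANKL-alone libraries, for example, stand on one side of both RANKL against neither and PRDX1 added to RANKL.

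**Figure D1:**
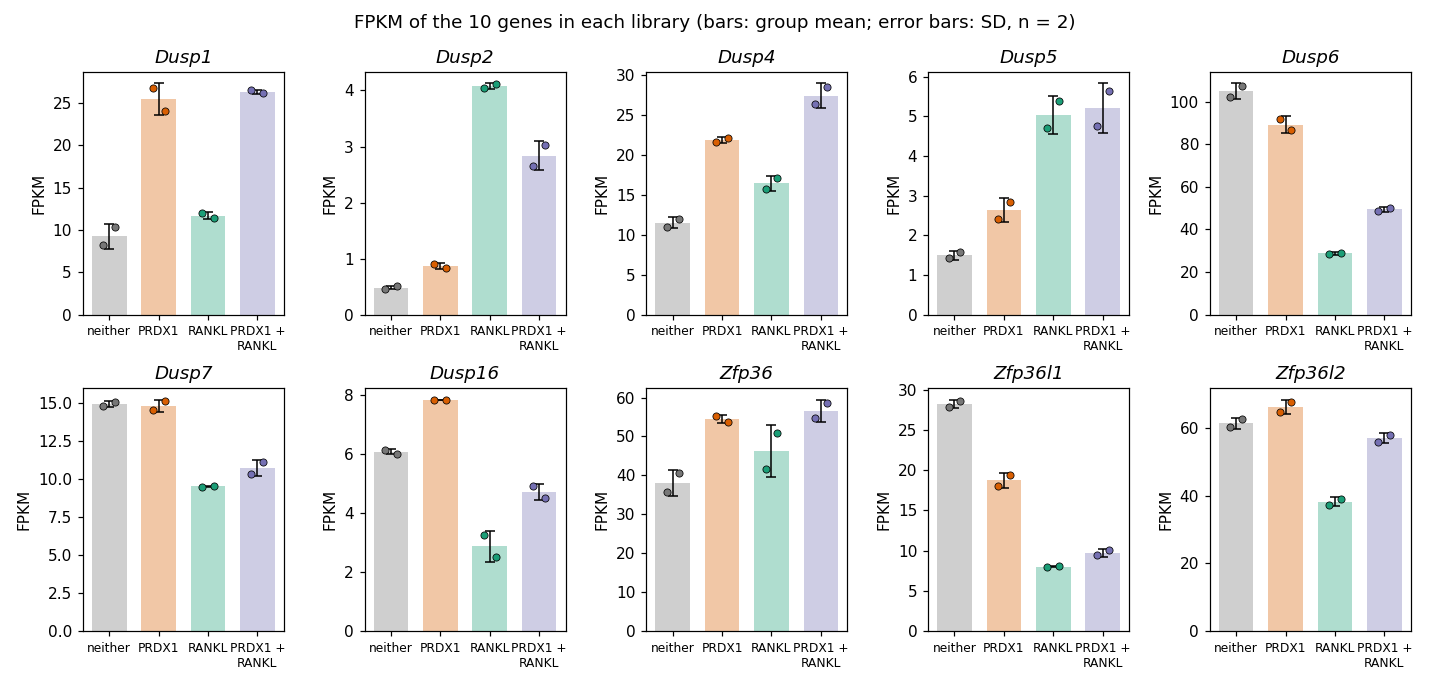
FPKM (vertical axes, each from 0) of the 7 MAP kinase phosphatase genes and the 3 Zfp36 family genes in the 4 groups; points are single libraries, bars group means and error bars SD (n = 2). The PRDX1 groups are highest for Dusp1 and Dusp4, the RANKL groups for Dusp2 and Dusp5, and the neither group for Dusp6 and Zfp36l1.

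Dusp1, an immediate early gene whose product acts on p38 and JNK in the nucleus, was higher with PRDX1 in both settings. Its 2 libraries read 8.23 and 10.3 FPKM with neither, 26.7 and 24.1 with PRDX1 alone, 11.96 and 11.4 with RANKL alone, and 26.5 and 26.2 with both. The 4 libraries with PRDX1 lay above the 4 without it. Dusp1 rose 2.74-fold in mean FPKM with PRDX1 alone (log2 difference 1.37, SE 0.09, limma adjusted p = 5.17e-06). It rose 2.25-fold when PRDX1 was added to RANKL (log2 difference 1.11, SE 0.09, limma adjusted p = 9.35e-06). The PRDX1-alone and both libraries overlapped, and the log2 difference between these groups was 0.05 with a 95% interval of -0.16 to 0.26. RANKL alone against neither gave 0.31 with a limma adjusted p of 0.0150, under the 1.5-fold limit.

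Dusp1 (NM_013642) lies at chr17:26505591-26508472 on the minus strand of mm10. The stretch from 250 to 50 bases before its RefSeq start, chr17:26508522-26508722 of GRCm38.p6 (minus strand), is shown because it holds a full cyclic AMP response element, TGACGTCA, in capitals.
Dusp1: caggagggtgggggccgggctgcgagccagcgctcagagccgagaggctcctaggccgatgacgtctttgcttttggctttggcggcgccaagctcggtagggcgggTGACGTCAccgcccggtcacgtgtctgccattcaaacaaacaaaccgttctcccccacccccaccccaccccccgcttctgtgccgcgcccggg
The element spans bases 143 to 136 before the start. Within 250 bases upstream of a start it occurred, on either strand, in 1.55% of the 32851 RefSeq promoters and in Dusp1 alone of the 8 genes of the set found in that collection. Such a match is a description of letters and not evidence of binding.

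Dusp4, a nuclear phosphatase of ERK and JNK, was ordered across the groups without any overlap. It read 10.99 and 11.96 FPKM with neither, 15.8 and 17.0 with RANKL alone, 21.6 and 22.1 with PRDX1 alone, and 26.3 and 28.4 with both. Each addition of PRDX1 or RANKL thus came with a higher level, and both PRDX1 differences were past the call. Dusp4 rose 1.91-fold in mean FPKM with PRDX1 alone (log2 difference 0.88, SE 0.07, limma adjusted p = 1.26e-05) and 1.67-fold with PRDX1 added to RANKL (0.71, SE 0.07, limma adjusted p = 2.51e-05). The RANKL differences were 0.48 without PRDX1 and 0.31 with it, both under 1.5-fold. With both proteins against neither, Dusp4 was 2.39-fold higher (log2 difference 1.19, limma adjusted p = 4.52e-07).

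Dusp2, a nuclear phosphatase found mainly in immune cells and first described as PAC-1, was the least abundant of the 10 genes in 3 of the 4 groups. Its libraries read 0.461 and 0.505 FPKM with neither, 0.910 and 0.826 with PRDX1 alone, 4.05 and 4.11 with RANKL alone, and 2.66 and 3.02 with both. All 4 groups were apart from each other, with RANKL alone highest. Dusp2 rose 8.45-fold in mean FPKM with RANKL alone (log2 difference 1.78 on the log2(FPKM + 1) scale, which understates changes of so low a gene, SE 0.09, limma adjusted p = 1.29e-07). It rose 3.27-fold when RANKL was added to PRDX1 (1.04, limma adjusted p = 2.08e-05). PRDX1 alone gave a ratio of mean FPKM of 1.80 and a log2 difference of 0.33 (limma adjusted p = 0.0246), and PRDX1 added to RANKL gave a ratio of 0.696 and -0.41 (limma adjusted p = 0.00634). Neither reached 1.5-fold on the log2(FPKM + 1) scale. At a pseudocount of 0.1 the first of these became 0.73 and was past the call.

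Dusp5, a nuclear phosphatase with a preference for ERK, separated by RANKL. It read 1.42 and 1.57 FPKM with neither, 2.42 and 2.85 with PRDX1 alone, 4.70 and 5.38 with RANKL alone, and 4.75 and 5.64 with both. The 2 groups with RANKL overlapped each other and lay above both groups without it. Dusp5 rose 3.37-fold in mean FPKM with RANKL alone (log2 difference 1.27, SE 0.11, limma adjusted p = 3.68e-06) and 1.97-fold with RANKL added to PRDX1 (0.77, SE 0.11, limma adjusted p = 3.47e-04). PRDX1 alone gave a ratio of mean FPKM of 1.76 and a log2 difference of 0.54 (limma adjusted p = 0.00418), under 1.5-fold on the log2(FPKM + 1) scale only. That difference was past the call at a pseudocount of 0.1 (0.77), with voom on the recovered fragments (0.80) and without PRDX1 + no RANKL replicate 1 (0.63). With RANKL present the PRDX1 difference was 0.04, with a 95% interval of -0.20 to 0.28.

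Dusp5 (NM_001085390) lies at chr19:53529145-53541809 on the plus strand, and the GENCODE annotation has an antisense gene, AC137853.2, over part of its exons. Fragments were counted on both strands, so reads of the 2 genes cannot be told apart. The stretch from 250 to 50 bases before the start, chr19:53528895-53529095 of GRCm38.p6 (plus strand), is shown because it holds a pair of CArG boxes end to end, the binding motif of serum response factor.
Dusp5: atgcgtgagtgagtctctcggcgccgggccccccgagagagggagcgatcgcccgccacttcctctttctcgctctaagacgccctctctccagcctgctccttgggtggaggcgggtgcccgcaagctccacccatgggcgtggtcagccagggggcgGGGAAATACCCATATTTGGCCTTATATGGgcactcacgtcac
The capitals mark an NF-kB motif (GGGA, any 4 bases, then CC) at bases 91 to 82 before the start, which shares 1 base with the first CArG box at 82 to 73, and the next CArG box at 72 to 63. A CArG box occurred in 1.47% of all RefSeq promoters and in 2 of the 8 genes found, the other being Zfp36, at bases 58 to 49. The NF-kB motif is common, at 17.6% of promoters, and also occurred upstream of Dusp1, Dusp6, Dusp7 and Zfp36. Upstream of Zfp36 an ETS motif (CCGGAAG) at bases 92 to 86 overlapped the NF-kB motif at bases 100 to 91, and the ETS motif was in 6.91% of promoters.

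Dusp6, the cytoplasmic ERK phosphatase and itself a target of ERK signaling, was the most abundant of the 10 genes in both groups without RANKL. It read 102 and 107 FPKM with neither, 91.9 and 86.4 with PRDX1 alone, 28.3 and 29.2 with RANKL alone, and 48.6 and 50.1 with both. No groups overlapped, and the 2 groups with RANKL lay lowest. Dusp6 fell with RANKL alone to 0.274 of its mean FPKM with neither (log2 difference -1.83, SE 0.05, limma adjusted p = 1.40e-09). With RANKL added to PRDX1 the ratio was 0.554 (-0.84, limma adjusted p = 1.54e-06). Adding PRDX1 to RANKL raised Dusp6 1.72-fold (log2 difference 0.76, SE 0.05, limma adjusted p = 2.15e-06), whereas PRDX1 alone gave -0.23 (limma adjusted p = 0.00784), short of 1.5-fold.

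Dusp7, the close relative of Dusp6, had the narrowest range among the phosphatases. Its libraries read 14.8 and 15.1 FPKM with neither, 14.5 and 15.1 with PRDX1 alone, 9.47 and 9.54 with RANKL alone, and 10.3 and 11.1 with both. The 2 groups without RANKL overlapped, and both lay above the groups with RANKL. Dusp7 fell with RANKL alone (ratio 0.637, log2 difference -0.60, limma adjusted p = 1.85e-05), just past the 1.5-fold limit. RANKL added to PRDX1 gave -0.43, inside it. The PRDX1 differences were -0.01 without RANKL (95% interval -0.15 to 0.13) and 0.16 with it (0.01 to 0.30).

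Dusp16, which acts on JNK and p38, was higher in the groups with PRDX1 than in their counterparts and lower in the groups with RANKL. It read 6.14 and 6.01 FPKM with neither, 7.83 and 7.82 with PRDX1 alone, 3.24 and 2.50 with RANKL alone, and 4.90 and 4.51 with both. No groups overlapped. Dusp16 fell with RANKL alone (ratio 0.473, log2 difference -0.88, SE 0.10, limma adjusted p = 2.72e-05) and with RANKL added to PRDX1 (ratio 0.601, -0.63, limma adjusted p = 6.56e-04), and without PRDX1 + RANKL replicate 2 this second difference was -0.58, inside 1.5-fold on the log2(FPKM + 1) scale. PRDX1 gave a ratio of mean FPKM of 1.29 without RANKL (log2 difference 0.32, limma adjusted p = 0.0323) and of 1.64 with it (0.57, limma adjusted p = 0.00105), and neither reached 1.5-fold on the log2(FPKM + 1) scale. The second of these was past the call at a pseudocount of 0.1 (0.70), under upper quartile scaling (0.60), with voom (0.74), without no PRDX1 + RANKL replicate 1 (0.70) and without PRDX1 + RANKL replicate 2 (0.61). The span of Dusp16 overlaps that of 1700055D16Rik in the table, while the GENCODE annotation has no other gene over the exons of Dusp16. Whether fragments of the 2 were shared was not tested.

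**Figure D2:**
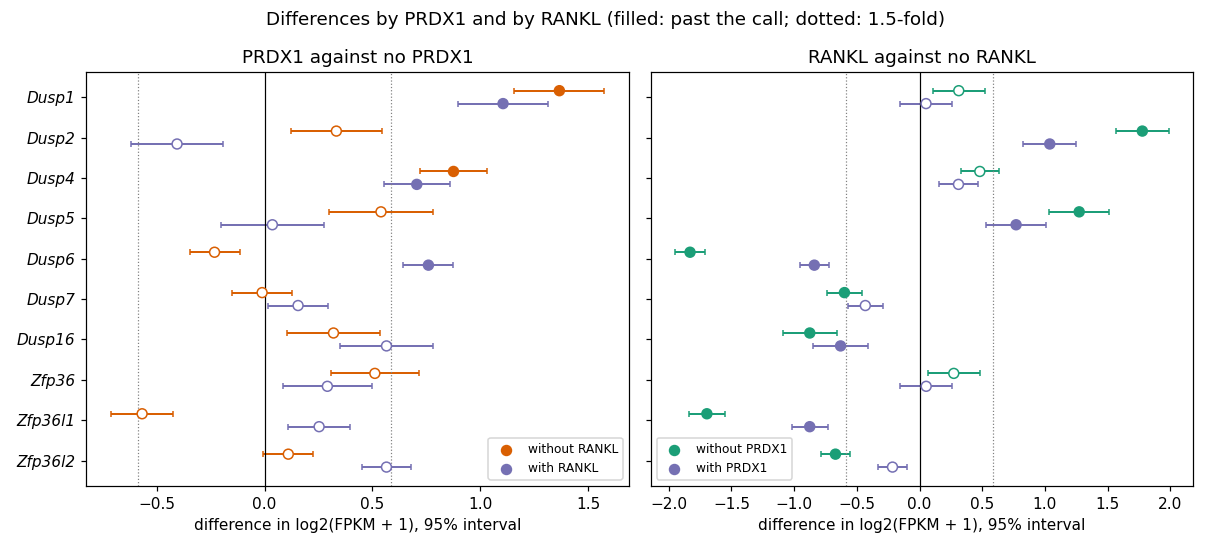
Differences in log2(FPKM + 1) (horizontal axes) with 95% intervals from limma for the 10 genes, by PRDX1 in the left panel and by RANKL in the right; filled points are past the call, dotted lines mark 1.5-fold. Dusp1 and Dusp4 are filled for PRDX1 with and without RANKL, while Dusp6 is filled only with RANKL, at 0.76 against -0.23 without it.

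Zfp36, which encodes TTP, had the highest level of the 10 with RANKL alone and the narrowest range of group means of all 10. It read 35.6 and 40.5 FPKM with neither, 55.2 and 53.8 with PRDX1 alone, 41.6 and 51.0 with RANKL alone, and 54.6 and 58.6 with both. The 2 groups with PRDX1 overlapped each other and lay above both groups without it, while the RANKL-alone libraries were the farthest apart. No Zfp36 difference was called. PRDX1 alone gave a ratio of 1.43 (log2 difference 0.51, SE 0.09, limma adjusted p = 0.00239), PRDX1 added to RANKL 1.22 (0.29, limma adjusted p = 0.0277) and both against neither 1.49 (0.56, limma adjusted p = 7.12e-04). Without no PRDX1 + no RANKL replicate 2 the first and the last became 0.60 and 0.65 and passed the call, and without PRDX1 + RANKL replicate 1 the last was 0.61.

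Zfp36l1, a decay factor with roles in development and cell differentiation, was highest with neither. It read 27.8 and 28.6 FPKM with neither, 18.1 and 19.4 with PRDX1 alone, 7.98 and 8.05 with RANKL alone, and 9.39 and 10.1 with both. No groups overlapped. Zfp36l1 fell with RANKL alone to a ratio of 0.284 (log2 difference -1.70, SE 0.06, limma adjusted p = 1.09e-08) and with RANKL added to PRDX1 to 0.521 (-0.88, limma adjusted p = 4.85e-06). PRDX1 alone gave a ratio of 0.664 and a log2 difference of -0.57 (limma adjusted p = 1.40e-04), just inside 1.5-fold on the log2(FPKM + 1) scale that sets the call though not in mean FPKM, and PRDX1 added to RANKL gave 0.25 (limma adjusted p = 0.0102). The first of these was past the call at a pseudocount of 0.1 and with voom (both -0.59), without no PRDX1 + no RANKL replicate 1 (-0.59) and without PRDX1 + no RANKL replicate 2 (-0.62).

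The RefSeq promoter of Zfp36l1 (NM_007564, chr12:80107760-80113013, minus strand) is shown from 250 to 50 bases before the start, chr12:80113063-80113263 of GRCm38.p6, because it alone of the 8 held an AP-1 motif (TGANTCA), in capitals at bases 129 to 123.
Zfp36l1: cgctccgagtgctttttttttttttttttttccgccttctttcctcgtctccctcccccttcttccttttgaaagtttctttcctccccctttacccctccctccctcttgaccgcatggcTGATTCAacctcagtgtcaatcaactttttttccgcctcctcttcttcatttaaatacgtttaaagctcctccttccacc
The AP-1 motif was in 6.75% of all promoters. Promoters of Dusp4 and Zfp36l2 were not analysed here.

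Zfp36l2, a decay factor best known from blood cell development, was the most abundant of its family with neither and with PRDX1 alone. It read 60.2 and 62.5 FPKM with neither, 64.8 and 67.7 with PRDX1 alone, 37.2 and 39.1 with RANKL alone, and 55.9 and 58.0 with both. The RANKL-alone libraries lay below all others. Zfp36l2 fell with RANKL alone (ratio 0.622, log2 difference -0.67, SE 0.05, limma adjusted p = 1.90e-06), and RANKL added to PRDX1 gave -0.22 (limma adjusted p = 0.00785), inside 1.5-fold. Adding PRDX1 to RANKL gave a ratio of 1.49 and a log2 difference of 0.56 (SE 0.05, limma adjusted p = 1.61e-05), just short of 1.5-fold. It was past the call under quantile normalization (0.63), under upper quartile scaling (0.61), without no PRDX1 + RANKL replicate 2 (0.60) and without PRDX1 + RANKL replicate 1 (0.59). PRDX1 alone gave 0.11, with a 95% interval of -0.01 to 0.23. Antisense genes lie over exons of Zfp36l1 (Gm26669) and Zfp36l2 (AC132455.1) in the GENCODE annotation, and their reads cannot be told apart from those of the 2 decay factors.

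The 3′ UTRs of all 3 Zfp36 family genes and of Dusp1 carry the letters that the family itself recognizes, the nonamer TTATTTATT. The 5 sites are printed with 10 bases on either side, from the mRNA strand of GRCm38, with the nonamer in capitals. All lie on the minus strand.
Dusp1 at chr17:26506159-26506187: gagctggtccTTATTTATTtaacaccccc
Dusp1 at chr17:26505870-26505898: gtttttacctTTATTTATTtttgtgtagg
Zfp36 at chr7:28376951-28376979: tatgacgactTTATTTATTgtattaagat
Zfp36l1 at chr12:80108167-80108195: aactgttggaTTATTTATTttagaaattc
Zfp36l2 at chr17:84184914-84184942: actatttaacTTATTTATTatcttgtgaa
The nonamer was thus in 4 of the 10 genes, against 6.86% of the 10038 tested genes with a matched GENCODE 3′ UTR and 6.78% of the 4645 whose 3′ UTR was within the length range of the 10 genes. The shorter heptamer TATTTAT, which lies inside the nonamer, was in 5 of the 10 (the same 4 and Dusp2) against 26.6% of all and 29.2% within the length range, and the pentamer ATTTA was in all but Dusp7 against 65.5% and 78.5%. Of the 4 genes with the nonamer, Dusp1 and Zfp36 had the same order of group means (both, PRDX1 alone, RANKL alone, neither; Pearson r = 0.90 over the 8 libraries, which share 4 conditions), though no difference of Zfp36 was called. Dusp4, whose 3′ UTR has neither the nonamer nor the heptamer, had that order too (r = 0.94 with Dusp1 and 0.95 with Zfp36). Zfp36l1 was highest with neither and Zfp36l2 with PRDX1 alone.

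The PRDX1 differences with and without RANKL were compared in the same limma model as an interaction, the difference with RANKL minus that without. Of the 10 genes 3 were called, against 8.85% of tested genes, 4.5% higher and 4.35% lower, and 5 had an adjusted p under 0.05 against 23.1% of tested genes. The interaction was 0.99 for Dusp6 (SE 0.07, 95% interval 0.83 to 1.15, limma adjusted p = 1.23e-05) and 0.82 for Zfp36l1 (SE 0.09, 95% interval 0.62 to 1.02, limma adjusted p = 1.66e-04). For both genes the PRDX1 difference was below 0 without RANKL and above 0 with it. The interaction of Dusp2 was -0.74 (SE 0.13, 95% interval -1.04 to -0.44, limma adjusted p = 0.00322), with the opposite signs.

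Dusp1 and Dusp4, the 2 genes called for PRDX1 in both settings, had interactions of -0.26 (95% interval -0.56 to 0.03) and -0.17 (-0.39 to 0.05) with limma adjusted p-values of 0.192 and 0.250. Over the alternatives these ran from 0.0309 to 0.529 for Dusp1, the lowest without no PRDX1 + no RANKL replicate 2 (-0.41), and from 0.134 to 0.563 for Dusp4. For Zfp36l2 the interaction was 0.45 (limma adjusted p = 0.00157) and for Dusp5 -0.50 (limma adjusted p = 0.0381), both under 1.5-fold. That of Dusp5 was past the call at a pseudocount of 0.1 (-0.73), with voom (-0.78), without PRDX1 + no RANKL replicate 1 (-0.59) and without PRDX1 + RANKL replicate 2 (-0.61).

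**Figure D3:**
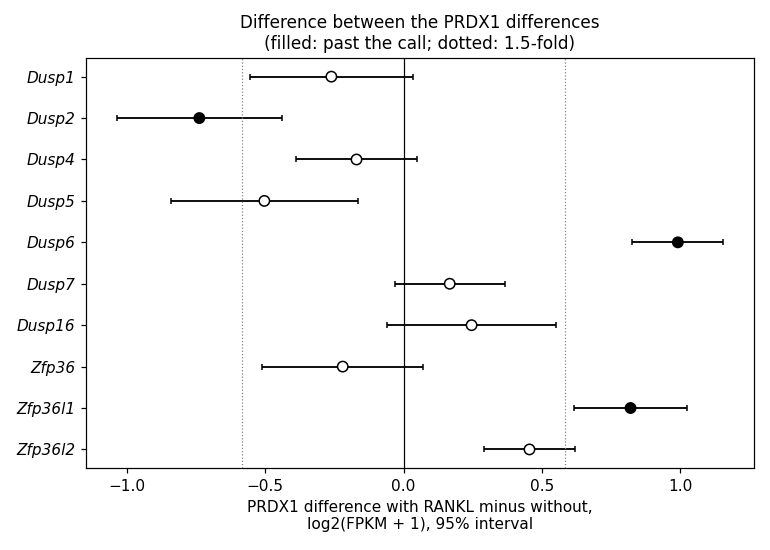
Interaction of PRDX1 and RANKL for each gene (horizontal axis, PRDX1 difference with RANKL minus that without, in log2(FPKM + 1)) with 95% intervals from limma; filled points are past the call, dotted lines mark 1.5-fold. Dusp6 at 0.99 and Zfp36l1 at 0.82 lie on the right and Dusp2 at -0.74 on the left.

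Summed over the 7 genes, the phosphatases came to 149 ± 6.05 FPKM with neither, 163 ± 4.74 with PRDX1 alone, 78.4 ± 1.17 with RANKL alone and 127 ± 3.48 with both (SD, n = 2). The groups did not overlap. No test of the sums was made, and for a single value an exact two-sided permutation test of 2 libraries against 2 cannot go below p = 0.333. Dusp6 made up 70.6% ± 0.430 of the sum with neither, 54.8% ± 0.772 with PRDX1 alone, 36.7% ± 0.205 with RANKL alone and 39.0% ± 0.236 with both (SD, n = 2). The share of Dusp1 was 6.23% with neither and 15.6%, 14.9% and 20.8% with PRDX1 alone, RANKL alone and both. That of Dusp4 was 7.72%, 13.5%, 20.9% and 21.6% in the same order. With RANKL alone the share of Dusp1 was larger and the sum smaller than with neither, while the level of Dusp1 passed no call.

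The 3 Zfp36 family genes summed to 128 ± 5.62 FPKM with neither, 140 ± 1.97 with PRDX1 alone, 92.5 ± 8.00 with RANKL alone and 123 ± 4.80 with both (SD, n = 2). The RANKL-alone sums lay below all others. Zfp36l2 kept between 41.4% and 48.1% of the sum in the 4 groups. Zfp36 made up 29.8% with neither, 39.1% with PRDX1 alone, 49.9% with RANKL alone and 45.9% with both, and Zfp36l1 made up 22.1%, 13.4%, 8.70% and 7.90%.

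**Figure D4:**
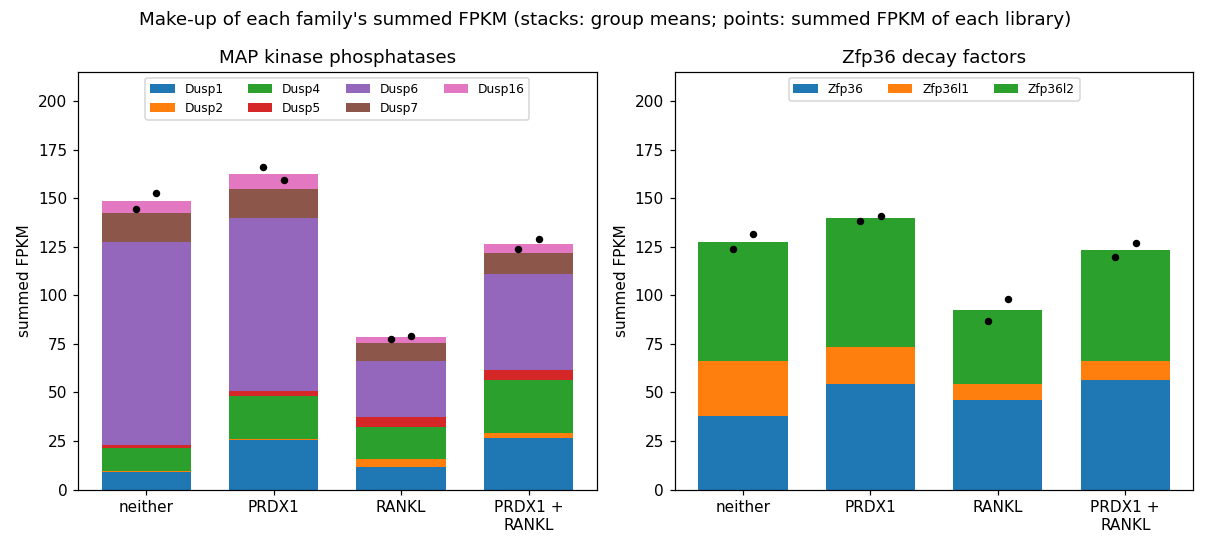
Summed FPKM (vertical axes, from 0) of the MAP kinase phosphatase genes and of the Zfp36 family genes in the 4 groups; stacks are group means of each gene and points the sums of single libraries. The stack of Dusp6 shrinks from 70.6% of the phosphatase sum with neither to 36.7% with RANKL alone, and the Zfp36 stack grows from 29.8% to 49.9% of its family.

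In the order of levels, Dusp6 (105 FPKM), Zfp36l2 (61.3), Zfp36 (38.04) and Zfp36l1 (28.2) led with neither, and no neighbours overlapped down to Dusp2 (0.483). With PRDX1 alone Dusp1 and Dusp4 stood at the fourth and the fifth place, above Zfp36l1. With RANKL alone Zfp36 (46.3) led, followed by Zfp36l2 (38.2) and Dusp6 (28.8), and Dusp16 (2.87) was last. With both proteins Zfp36l2 (56.9) and Zfp36 (56.6) overlapped, as did Dusp4 (27.4) with Dusp1 (26.3) and Dusp5 (5.20) with Dusp16 (4.71).

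Dusp6 and Zfp36l1 had the widest range of group means in their families on the log2(FPKM + 1) scale, Dusp6 with 1.83 against 1.78 for Dusp2. In mean FPKM the highest group of Dusp2 was 8.45 times its lowest and that of Dusp6 3.65 times. Over the 8 libraries, which share only 4 conditions, the tested genes most like Dusp6 by Pearson r on log2(FPKM + 1) were Zcchc24, Cdc42se2, Itsn1, Etv5 and Dab2, with r between 0.997 and 0.999. Etv5, an ETS factor that is itself an ERK target, averaged 48.98, 38.9, 12.005 and 20.9 FPKM with neither, PRDX1 alone, RANKL alone and both. Those most like Zfp36l1 were Smagp, Galnt2, Itga6, Rab5c and Cap1, with r between 0.996 and 0.998. Itga6, an integrin chain, averaged 64.7, 41.9, 16.2 and 18.8 FPKM in the same order.

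Of 7 tested genes for MAP kinases, the enzymes these phosphatases act on, limma called 0 for PRDX1 alone and 0 for PRDX1 added to RANKL. At an unadjusted p under 0.05 there were 3 and 4, and voom also called 0 and 0. Among all tested genes 5.79% and 10.2% were called and 39.8% and 50.2% had an unadjusted p under 0.05, so that the counts in this and the following lists, most of them short, say little beyond the genes named. Of 12 genes for MAP kinase kinases, the upstream kinases Map3k7 and Map3k8 and the effector kinases MK2, MK3 and MK5, limma called 0 for PRDX1 alone (5 at an unadjusted p under 0.05, 1 with voom) and 1 for PRDX1 added to RANKL (9 at an unadjusted p under 0.05, 2 with voom). The gene called by limma was Map2k3, an activator of p38, which averaged 88.4 ± 5.37 FPKM with RANKL alone and 57.7 ± 0.571 with both (SD, n = 2; log2 difference -0.61, limma adjusted p = 1.82e-05). Voom also called Mapkapk3, which encodes MK3 and whose limma difference had the opposite sign (0.57, limma adjusted p = 1.27e-04).

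Other brakes on the pathway were described by 3 lists. Of 2 further MAP kinase phosphatases with enough signal, Dusp9 fell when PRDX1 was added to RANKL, from 4.15 ± 0.503 to 1.63 ± 0.00212 FPKM (SD, n = 2; log2 difference -0.97, limma adjusted p = 7.89e-05). Among 9 tested atypical dual-specificity phosphatases, Dusp22 fell with PRDX1 alone, from 19.9 ± 1.92 to 11.4 ± 0.355 FPKM (-0.75, limma adjusted p = 6.65e-05), and limma called 0 with RANKL present (4 at an unadjusted p under 0.05, 0 with voom). Of 5 tested Sprouty and Spred genes, whose products restrain ERK upstream, Spry1 fell when PRDX1 was added to RANKL, from 2.19 ± 0.0255 to 0.238 ± 0.132 FPKM (-1.37, limma adjusted p = 1.34e-05), and limma called 0 for PRDX1 alone (2 at an unadjusted p under 0.05). Spry1 averaged 0.12 FPKM with neither and 0.107 with PRDX1 alone. It passed the filter of 0.5 FPKM only through the RANKL-alone group, so its fall is not independent of that filter. Voom also called Spry3 in both settings, where its differences in limma were above 0, at 0.25 without RANKL (limma adjusted p = 0.105) and 0.48 with it (limma adjusted p = 0.00437). Spry3 averaged 0.4165, 0.6825, 0.212 and 0.6915 FPKM with neither, PRDX1 alone, RANKL alone and both. It passed the filter of 0.5 FPKM only through the groups with PRDX1, so these differences are not independent of that filter. Among 6 tested output genes of ERK signaling, Ier3 rose with PRDX1 alone (0.94, limma adjusted p = 3.49e-05). When PRDX1 was added to RANKL, Ier3 (1.35) and Etv5 (0.76) rose. In these settings 4 and 4 had an unadjusted p under 0.05, and voom called 1 and 3. With PRDX1 alone Ccnd1 (-0.48, limma adjusted p = 4.09e-05) and Etv5 (-0.32, limma adjusted p = 0.00597) were lower, both under 1.5-fold. The median log2 difference of the 6 was 0.03 and 0.37 in these settings, beside -0.04 and -0.06 over all tested genes.

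The deadenylation and decapping machinery that Zfp36 proteins recruit was represented by 25 tested genes, of which limma and voom called 0 for PRDX1 alone and 0 for PRDX1 added to RANKL, with 10 and 9 at an unadjusted p under 0.05, against 5.79% and 10.2% of tested genes called and 39.8% and 50.2% at that unadjusted p. Of 12 tested genes for other proteins that bind AU-rich elements or 3′ UTRs, Zc3h12a, an endonuclease that cleaves inflammatory mRNAs, rose with PRDX1 alone from 3.67 ± 0.525 to 7.83 ± 0.384 FPKM (SD, n = 2; 0.92, limma adjusted p = 4.74e-05), and limma called 0 with RANKL present (4 at an unadjusted p under 0.05, 1 with voom). Of 19 mRNAs listed as TTP targets 13 were tested, and 7 rose with PRDX1 alone and 9 with PRDX1 added to RANKL, none falling, where 3.8% and 6.03% of all tested genes were called higher, and voom called 7 and 11. The median log2 difference of these 13 was 0.62 and 1.09, beside -0.04 and -0.06 over all tested genes.

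Within the PRDX1 comparisons, the largest log2(FPKM + 1) differences in the list were for Ccl4, Plk2 and Cxcl2, all with PRDX1 added to RANKL. For PRDX1 alone the largest was that of Cxcl1 (1.24). Ccl4, a chemokine, averaged 2.52 ± 1.12 FPKM with RANKL alone and 14.0 ± 2.60 with both (SD, n = 2; 2.12, limma adjusted p = 1.19e-05). Without RANKL it averaged 70.1 with neither and 73.8 with PRDX1 alone, a log2 difference of 0.08. Plk2, a polo-like kinase, rose from 9.62 to 22.1 FPKM with PRDX1 alone (1.12) and from 2.08 to 11.5 with PRDX1 added to RANKL (2.02). Cxcl2, a neutrophil attractant, rose from 3.04 to 8.00 (1.16) and from 0.767 to 5.67 (1.91). Levels of these mRNAs and of Zfp36 itself were measured at 1 time point, and mRNA half-lives were not measured.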

How the data were processed

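The authors sequenced paired 100-base reads and deposited 1 table of FPKM per gene, made with HOMER on mm10 RefSeq exons (fragments of both strands, one transcript per gene). The labels' processing notes name HISAT2, HOMER and DESeq2 without versions. FPKM multiplied by transcript length and library total gave whole fragments, within 0.15, for 100% of the 9625 to 12222 genes checked per library. Columns of other per-sample values numbered 0.

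Differences were computed here as log2(FPKM + 1), which understates changes of low genes, with limma 3.58.1 in R 4.3.3 (one model of 4 groups, intensity trend, 4 residual degrees of freedom, mean of at least 0.5 FPKM). Calls needed a Benjamini-Hochberg adjusted p under 0.05 over 11700 genes and 1.5-fold, the limits of the study's methods. The steps were tested on simulated data. Replicate libraries differed beyond sampling noise (chi-square per degree of freedom 4.71 to 9.58) and were kept as 2 samples.

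The 10 genes, the gene lists and the tests were chosen with earlier results of these data known. The text names all 10 genes, up to 3 called genes of each pathway list by size of change, and the 5 genes most like Dusp6 and Zfp36l1. Marker genes, Ccnd1, Cxcl1, Spry3 and Mapkapk3 were named after their values were seen. Promoters are from RefSeq (GRCm38.p6, the mm10 assembly) and 3′ UTRs from GENCODE M21; 8 and 10 of the 10 genes matched. The alternatives tried were another pseudocount, other filters, quantile and upper quartile scaling, no intensity trend, a replicate block, voom on the recovered fragments, and leaving out each of the 8 libraries in turn.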

Additional observations from a re-analysis of the deposited data

Results flagged for a closer look

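For 3 of the 10 genes, where 8.85% of all tested genes were called, the difference made by PRDX1 was not the same with and without RANKL by the interaction term of the model. The interaction, in log2(FPKM + 1), was 0.99 for Dusp6, 0.82 for Zfp36l1 and -0.74 for Dusp2, with limma adjusted p-values of 1.23e-05, 1.66e-04 and 0.00322. Zfp36l2 (0.00157) and Dusp5 (0.0381) also had a limma adjusted p under 0.05, below 1.5-fold, and 23.1% of tested genes had one. For Dusp6, Zfp36l1, Dusp2 and Zfp36l2 the libraries with and without PRDX1 did not overlap in either setting. Those of Dusp5 did not overlap without RANKL but overlapped with it. The libraries did not overlap for 65.8% of tested genes without RANKL and 71% with it. The macrophage marker sum was lower and the osteoclast marker sum higher with RANKL alone than with both, and their part in these 3 results was not tested.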

How the results depend on the processing

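The differences of the 10 genes in the 6 comparisons were recomputed under 16 alternatives. Of 960 values for single genes 925 kept their direction and their side of the call. The other filters, no intensity trend, the replicate block and leaving out a library outside a comparison cannot change a difference, only its adjusted p. The 925 is therefore not a count of independent checks. The number of the 10 genes called for PRDX1 alone was 5 at a pseudocount of 0.1 and 4 with voom on the recovered fragments, against 2, and for PRDX1 added to RANKL it was 5 under upper quartile scaling, against 3; the genes gained lie near 1.5-fold or have low FPKM, and the cause was not tested. Same-numbered libraries showed little shared deviation between groups (correlation 0.01 to 0.10, none over 0.1), which does not settle whether the replicate numbers pair the samples. A replicate block left the counts of called genes at 2, 3, 7, 5, 6 and 3 in the 6 comparisons. Differences near 0 changed sign. Dusp7 for PRDX1 alone became 0.0113 with quantile normalization and 0.0240 with upper quartile scaling, and ranged from -0.0369 to 0.0145 with a library left out. Dusp1 for RANKL added to PRDX1 became -0.00929 and -0.00158 under these scalings and ranged from -0.0217 to 0.125 with a library left out. Zfp36 for RANKL added to PRDX1 became -0.00137 under upper quartile scaling, and Dusp5 for PRDX1 added to RANKL ranged from -0.0674 to 0.140 with a library left out. With 2 libraries a group, changes near the limit of 1.5-fold can fall on either side of it, and at 0.5 to 5 FPKM the values of Dusp2 and Dusp5 depend on the pseudocount.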
